A study of Mus musculus with 27 samples.

Results

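The genes described here are the core of the mouse Hippo pathway: the kinases *Stk3*, *Stk4*, *Lats1* and *Lats2*, the coactivators *Yap1* and *Wwtr1*, and the transcription factors *Tead1*, *Tead2*, *Tead3* and *Tead4*. They were chosen by name, and each took every region of histone H3 lysine 4 (H3K4) methylation that lay in its annotated body or within 5 kb of one of its annotated transcription start sites (TSS). These are 10 of 22380 annotated protein-coding genes, and they held 233 of the 358833 regions in the merged list.

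The study examined H3K4 methylation in mouse hearts at embryonic day E11.5 by chromatin immunoprecipitation with sequencing (ChIP-Seq), to determine where the marks fall when *Kmt2d*, which encodes an H3K4 methyltransferase, is deleted in the myocardium. Control hearts (WT in the sample titles) were *Tnnt2::Cre;Kmt2d fl/+* and mutant hearts were *Tnnt2::Cre;Kmt2d fl/fl*, both *mTmG/+* on a C57BL/6 background, so that controls also carried Cre and had 1 floxed copy of *Kmt2d*. Cre was driven by *Tnnt2*, a gene of heart muscle cells, and whole hearts were used. The other cells of the heart therefore kept *Kmt2d* and were part of every sample. Each genotype had 3 pools of 30 hearts, and every pool supplied an input library and 1 library for each of the marks H3K4me1, H3K4me2 and H3K4me3. This gave 24 heart libraries in 8 groups of 3. A further 3 libraries, of KMT2D ChIP-Exo in cardiomyocytes derived from embryonic stem cells, were not analysed here.

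The values were the authors' region lists. One list merged the peaks of all 3 marks, and the other lists gave the merged regions with lower H3K4me1 (2730 regions) or lower H3K4me2 (6699 regions) in mutant than in control hearts. Each list holds coordinates only. No value per pool was therefore at hand, the depth behind each region is unknown, and no comparison below has a replicate error or a test behind it. Membership of a list is the authors' call, a region in neither list may still have changed, and the deletion itself could not be checked from these lists. In whole hearts, fewer cells of a type and less of a mark per cell cannot be told apart.

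In the Hippo pathway, the kinases STK3 and STK4 (also called MST2 and MST1) phosphorylate and activate LATS1 and LATS2. These in turn phosphorylate YAP1 and WWTR1 (also called TAZ), which are then held in the cytoplasm or degraded. Without that phosphorylation, YAP1 and WWTR1 enter the nucleus and bind the TEAD factors, which carry the DNA-binding domain, and the pathway is known for restraining the proliferation of heart muscle cells and the size of the heart. Of the marks, H3K4me1 lies mainly at enhancers, H3K4me3 at promoters, and H3K4me2 at both.

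Promoter sequences from within regions called below are shown first, although each call is for the whole region and not for these bases. They are the 250 bases before the TSS of *Wwtr1* and of transcript Lats2-001 of *Lats2*, because these TSSs lay in regions with decreased H3K4me2. The promoter of *Yap1*, the paralogue of *Wwtr1*, lay in a region that was in neither list and is shown for comparison. Sequences are from the NCBIM37 (mm9) genome, on the strand of the gene, 5′ to 3′. Capitals mark GGAATG or its reverse complement CATTCC, the core letters bound by TEAD factors, searched on both strands.
*Wwtr1* promoter, chr3:57379833-57380082, minus strand: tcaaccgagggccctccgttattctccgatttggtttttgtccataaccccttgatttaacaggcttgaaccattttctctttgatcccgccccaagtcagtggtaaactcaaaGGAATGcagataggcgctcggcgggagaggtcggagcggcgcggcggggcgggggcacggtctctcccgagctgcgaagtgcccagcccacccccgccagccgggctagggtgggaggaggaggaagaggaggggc
*Lats2* promoter of Lats2-001, chr14:58364961-58365210, minus strand: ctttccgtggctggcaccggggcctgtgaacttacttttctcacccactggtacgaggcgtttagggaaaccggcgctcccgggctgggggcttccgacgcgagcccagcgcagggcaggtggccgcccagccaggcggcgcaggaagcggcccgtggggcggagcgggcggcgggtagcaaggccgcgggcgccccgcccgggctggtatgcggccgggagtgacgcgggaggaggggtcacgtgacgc
*Yap1* promoter, chr9:8004597-8004846, minus strand: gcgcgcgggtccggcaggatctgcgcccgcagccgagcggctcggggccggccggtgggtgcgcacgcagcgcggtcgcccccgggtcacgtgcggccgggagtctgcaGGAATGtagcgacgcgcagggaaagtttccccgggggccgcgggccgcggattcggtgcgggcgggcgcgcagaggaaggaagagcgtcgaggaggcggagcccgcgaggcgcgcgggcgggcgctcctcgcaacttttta

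The GGAATG letters occurred in the 250 bases before the most 5′ TSS of 4 of the 10 genes, and in 11.4% of such windows over 22367 protein-coding genes. In 3 of these 4, the match began at position -141 in *Yap1*, -136 in *Wwtr1* and -182 in *Tead3*, counted back from the TSS. The longer form GGAATGT was present in 1 of 10 (*Yap1*) against 2.87% of all genes. In 1000 bases before the TSS, GGAATG was found in 6 of 10 genes against 41.9% of all genes. The *Lats2* promoter shown held no match, which says only that these letters are not in this window. A match is a description of the sequence and not a binding site.

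Also shown are the narrowest called regions, 1 in *Yap1* (decreased H3K4me2) and 1 in *Tead2* (decreased H3K4me1), each of them 60 bp, the smallest width in the merged list.
*Yap1* region, chr9:8000166-8000225, minus strand: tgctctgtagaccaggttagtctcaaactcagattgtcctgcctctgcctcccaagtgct
*Tead2* region, chr7:52483506-52483565, plus strand: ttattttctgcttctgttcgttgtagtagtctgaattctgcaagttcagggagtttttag

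Neither of these sequences held GGAATG or CATTCC. Each whole sequence occurred once in the genome, and none of their 29 overlapping words of 32 bases occurred elsewhere. For words of 20 bases, 29 of the 41 in the *Yap1* region were found more than once, the most frequent of them 47654 times, whereas in the *Tead2* region this was so for 0 of 41. Most of the *Yap1* region is therefore shared, in 20-base pieces, with other places in the genome. What part this had in the call was not tested.

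Of the 233 regions at the 10 genes, 12 were called as decreased, 3 for H3K4me1 and 9 for H3K4me2, and none was in both lists. The shares were 1.29% of the regions for H3K4me1 and 3.86% for H3K4me2. Over all 194694 regions at protein-coding genes, 0.935% were called for H3K4me1 and 2.69% for H3K4me2. The called regions were spread over *Yap1*, *Wwtr1*, *Tead1*, *Tead2*, *Lats2* and *Stk3*. *Tead3*, *Tead4*, *Lats1* and *Stk4* had none. *Tead1* was the only 1 of the 10 with calls for both marks.

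**Figure D1:**
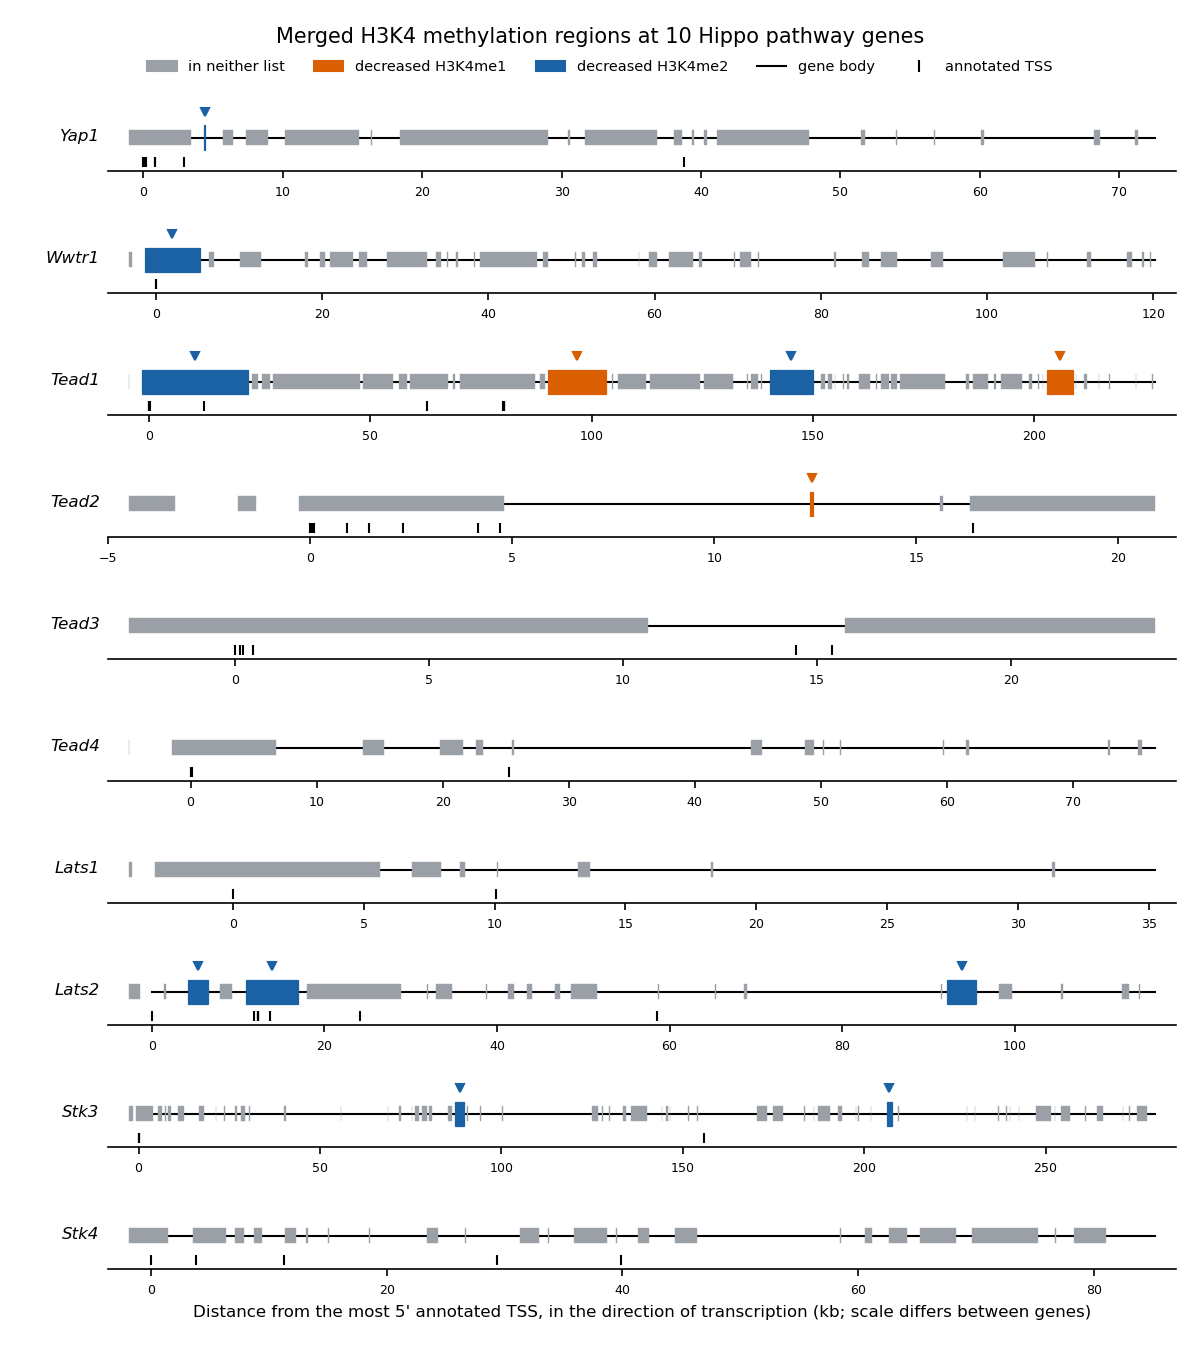
Merged H3K4 methylation regions along each of the 10 genes, with the distance from the most 5′ TSS on the x axis (kb, in the direction of transcription, a different scale for each gene). Boxes are regions, coloured and topped by a triangle where called as decreased, the line is the gene body and ticks are annotated TSSs. Calls lie at the first TSS in *Wwtr1* and *Tead1*, at an internal cluster of TSSs in *Lats2*, and only inside the body in *Yap1*, *Tead2* and *Stk3*.

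Counted by gene, 5 of 10 had at least 1 region with decreased H3K4me2 and 2 of 10 at least 1 with decreased H3K4me1. Among the 20025 protein-coding genes with a region these shares were 28.7% and 7.08%. The Hippo genes also held more regions than most, with a median of 20.5 against 5 in all genes. The 7 Hippo genes with at least 14 regions included all 5 with decreased H3K4me2 and 1 of those with decreased H3K4me1. Among the 3748 protein-coding genes with as many regions, 45.3% had decreased H3K4me2 and 21.9% had decreased H3K4me1. Of the 3 Hippo genes with fewer regions, *Tead2* alone had a call.

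All 10 genes had a TSS inside a merged region. For 3 of them (*Wwtr1*, *Tead1* and *Lats2*) a TSS lay in a region with decreased H3K4me2, and for 0 of them in a region with decreased H3K4me1. Of the 15752 protein-coding genes with a TSS in a region, 29.2% had one in an H3K4me2-decreased region and 1.29% in an H3K4me1-decreased region. The count for H3K4me2 was thus near the background. Among the 7226 genes whose widest TSS region was at least 4000 bp the share was 39.4%, and 3 of the 9 Hippo genes in that class were called.

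**Figure D2:**
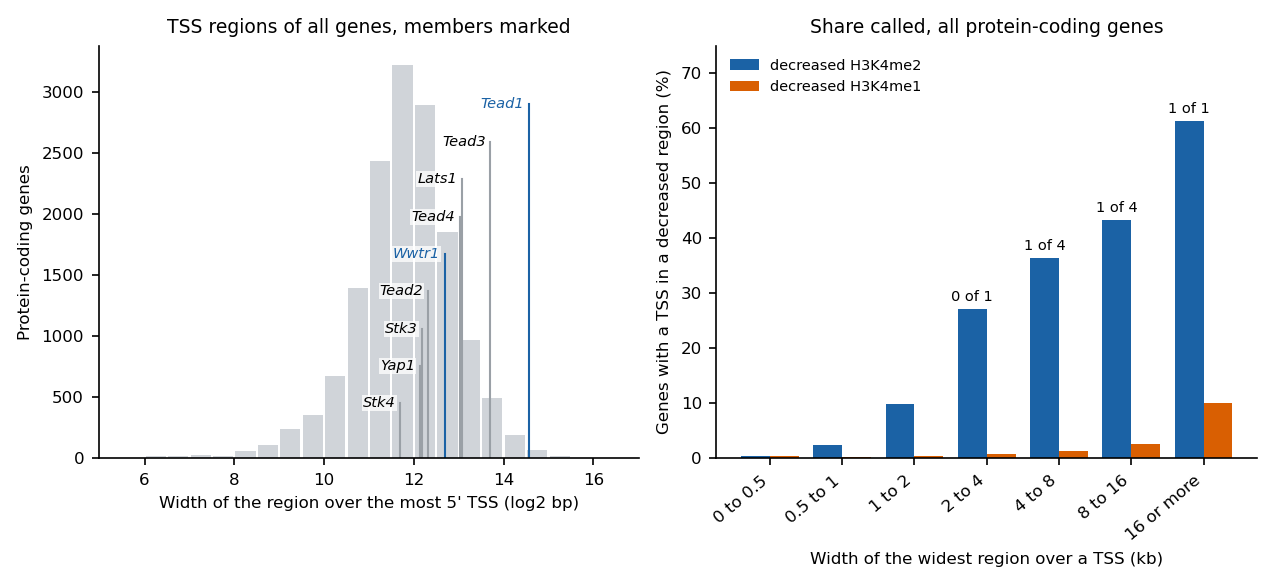
Left, the width of the region over the most 5′ TSS of all protein-coding genes (log2 bp, bars) with lines at the Hippo genes, blue where that region had decreased H3K4me2; *Lats2* is absent because its most 5′ TSS lay in no region. Right, the percentage of protein-coding genes with a TSS in a decreased region by the width of their widest TSS region (kb), which rises to 61.2% for H3K4me2 at 16 kb or more, with the count of Hippo genes called for H3K4me2 printed above the bars.

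The share of genes with a TSS in an H3K4me2-decreased region rose with the width of the widest TSS region of the gene. It was 27.1% at 2000 to 4000 bp, 36.4% at 4000 to 8000 bp, 43.3% at 8000 to 16000 bp and 61.2% above that. In these classes 0 of 1, 1 of 4, 1 of 4 and 1 of 1 Hippo genes were called. The widest TSS region of a gene need not be the one called. In *Lats2*, the gene called at 8000 to 16000 bp, the widest was 10840 bp and in neither list. Its called TSS region was 6120 bp wide. The Hippo genes had wide TSS regions, with a median of 6600 bp at the most 5′ TSS (9 genes) against 3640 bp over 15066 genes, whose quartiles were 2340 and 5660 bp. *Stk4* alone lay below the median of all genes.

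By place, 15 of the 233 regions held a TSS of 1 of the genes, of which 3 had decreased H3K4me2 and 0 had decreased H3K4me1. The place was set in the same way for every protein-coding gene and each of its regions, and at a TSS 24% were called for H3K4me2 and 1.11% for H3K4me1. A further 31 regions touched an exon without a TSS, of which the *Yap1* region was the only 1 called, beside 1.1% for H3K4me2 and 1.2% for H3K4me1 over all genes. Most of the regions, 179, were wholly intronic. Of these 5 had decreased H3K4me2 and 3 had decreased H3K4me1, beside 0.712% and 0.878% over all genes. The H3K4me2 count includes a *Lats2* region that held the TSS of *Xpo4*. It was intronic only through the readthrough transcript Lats2-004, described below. None of the 8 regions outside a gene body was called, where the shares over all genes were 2.8% for H3K4me2 and 0.728% for H3K4me1.

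**Figure D3:**
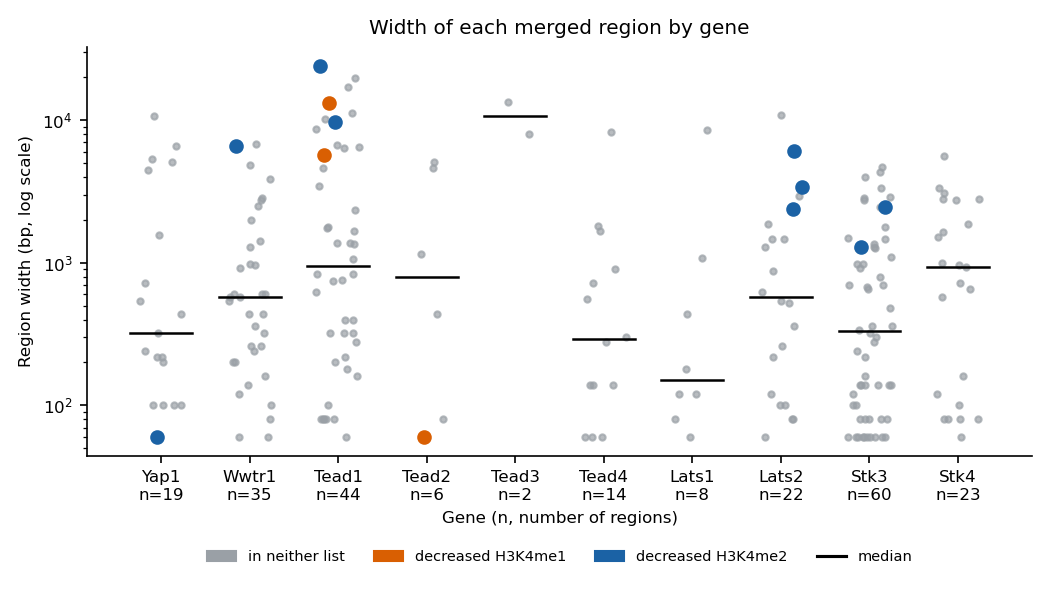
Width of each merged region (bp, log scale) at the 10 genes, 1 point per region, with the median of each gene as a line and called regions coloured. *Tead1* holds the widest region, at 24120 bp, and the called regions of *Yap1* and *Tead2* sit at the lower limit of 60 bp.

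The regions ranged from 60 bp to 24120 bp, with a median of 560 bp against 320 bp in the whole merged list. Of those at least 2000 bp wide with no TSS inside, the Hippo genes had 35, of which 2 (5.71%) had decreased H3K4me1 and 3 (8.57%) had decreased H3K4me2. The same class over all protein-coding genes held 16809 regions, with 4.62% called for H3K4me1 and 1.82% for H3K4me2. The 3 wide H3K4me2 calls away from a TSS were in *Tead1*, *Lats2* and *Stk3*. At the other end, 40 regions were narrower than 100 bp, and 1 of them was called for each mark. Of 35178 regions of that size at protein-coding genes, 0.6% were called for H3K4me1 and 0.984% for H3K4me2.

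*Stk3* and *Stk4* encode the kinases at the head of the pathway. *Stk3* (ENSMUSG00000022329.8, chr15:34805251-35085561, minus strand) had the most regions of the 10 genes, with 60 along 280 kb, of which 57 were wholly intronic. Its TSS lay in a region of 4660 bp (chr15:35081546-35086205) that was in neither list. The calls were both for H3K4me2 and both deep in the body. One was a region of 2480 bp in intron 6 (chr15:34995846-34998325), centred 88.5 kb from the TSS. The other was a region of 1280 bp in intron 9 (chr15:34878006-34879285), centred 207 kb from the TSS. Introns are numbered here from the 5′ end of the transcript numbered 001 of each gene, Stk3-001 in this case.

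*Stk4* (ENSMUSG00000018209.9, chr2:163896058-163981260, plus strand) had 23 regions and no call. The most 5′ TSS, of transcript Stk4-004 (16270 bp), lay in a region of 3320 bp (chr2:163894166-163897485). This region also held a TSS of *Tomm34*. It was the narrowest among the 9 genes with a region over the most 5′ TSS, and 44.0% of all such genes had a narrower one. Transcript Stk4-001, which spans 81387 bp, starts 3816 bp downstream of that TSS, in a region of 2780 bp (chr2:163899666-163902445). The Stk4-001 TSS region was in neither list. The widest *Stk4* region, of 5640 bp, lay in intron 10 (chr2:163965666-163971305). The kinases thus differed in their calls, although *Stk3* also had more than 2 times as many regions.

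*Lats1* and *Lats2* encode the kinases that phosphorylate YAP1 and WWTR1. *Lats1* (ENSMUSG00000040021.6, chr10:7401007-7436256, plus strand) had 8 regions and no call. Its TSS lay in a region of 8580 bp (chr10:7398046-7406625), wider than that of 89.5% of genes, which also held a TSS of *Pcmt1*, a protein repair methyltransferase. The remaining *Lats1* regions were narrow, and the median over the gene was 150 bp. The nearest decreased H3K4me2 region outside the gene was 12.4 kb from its TSS.

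*Lats2* (ENSMUSG00000021959.9, chr14:58260914-58377225, minus strand) had 22 regions, of which 3 had decreased H3K4me2. The gene has 9 annotated TSS positions, and the most 5′ of them (58377225, transcript Lats2-007) lay in no region. The region with the most TSSs was 6120 bp wide (chr14:58360246-58366365), held 6 TSS positions including that of Lats2-001, and had decreased H3K4me2. It reached from 1405 bp upstream to 4714 bp downstream of the Lats2-001 TSS, whose promoter sequence is printed above. The next region downstream, of 10840 bp (chr14:58348386-58359225), held a TSS of Lats2-005 and Lats2-006 and was in neither list. Neighbouring TSS regions of *Lats2* therefore differed in the call.

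A second *Lats2* call was a region of 2380 bp (chr14:58370686-58373065), which lay 5726 to 8105 bp upstream of the Lats2-001 TSS and in an intron of Lats2-007. The third call, of 3380 bp (chr14:58281666-58285045), lay 23453 bp beyond the 3′ end of Lats2-001 and held the TSS of *Xpo4*, which encodes a nuclear transport receptor. It belonged to *Lats2* only through the readthrough transcript Lats2-004, which spans 104027 bp against 56462 bp for Lats2-001. Without that transcript *Lats2* had 16 regions, of which 2 had decreased H3K4me2.

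*Yap1* and *Wwtr1* encode the coactivators. *Yap1* (ENSMUSG00000053110.7, chr9:7931999-8004596, minus strand) had 19 regions that covered 49.6% of its body. Its TSS region of 4480 bp (chr9:8001186-8005665) was in neither list, as were intragenic regions of 10660 bp (chr9:7975566-7986225), 6560 bp (chr9:7956866-7963425), 5360 bp (chr9:7989106-7994465) and 5120 bp (chr9:7967786-7972905). The sole call was the 60 bp region printed above, with decreased H3K4me2, 4371 to 4430 bp downstream of the most 5′ TSS. It lay in intron 2 of Yap1-001 and in an exon of a non-coding *Yap1* transcript. The wide regions of *Yap1* were thus without a call.

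*Wwtr1* (ENSMUSG00000027803.8, chr3:57259571-57379832, minus strand) had 35 regions, and the 1 that held its TSSs was the only 1 called. That region was 6600 bp wide (chr3:57374546-57381145), reached from 1313 bp upstream to 5286 bp downstream of the most 5′ TSS, held untranslated and coding exon sequence, and had decreased H3K4me2. It was wider than the TSS region of 81.5% of genes. The widest region of the gene, of 6840 bp (chr3:57333946-57340785), was intronic and in neither list. The paralogues therefore differed at the TSS, where *Wwtr1* had a call and *Yap1* had none, with TSS regions of 6600 and 4480 bp.

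*Tead1*, *Tead2*, *Tead3* and *Tead4* encode the DNA-binding partners of YAP1 and WWTR1. *Tead1* (ENSMUSG00000055320.8, chr7:119822832-120050319, plus strand) held 44 regions over 227 kb, and these covered 72.7% of its body. With 167 kb of regions it ranked 43 among the 20025 protein-coding genes with a region. Its calls were 2 for H3K4me2 and 2 for H3K4me1, the most among the 10 genes.

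The TSS region of *Tead1* was 24120 bp wide (chr7:119821086-119845205), wider than that of 99.4% of genes, and had decreased H3K4me2. It reached from 1746 bp upstream to 22373 bp downstream of the most 5′ TSS, held 5 *Tead1* TSS positions and untranslated exon sequence, and also held the TSS of the long non-coding RNA *2310014F06Rik*. The next call along the gene was for H3K4me1, in a region of 13160 bp in intron 2 (chr7:119912886-119926045), centred 96.6 kb from the TSS. The second H3K4me2 call was a region of 9760 bp in the same intron (chr7:119963106-119972865), centred 145 kb from the TSS. The second H3K4me1 call, of 5740 bp, lay in intron 11 (chr7:120025866-120031605), centred 206 kb from the TSS. Calls for the marks thus alternated along the gene, H3K4me2 first.

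**Figure D4:**
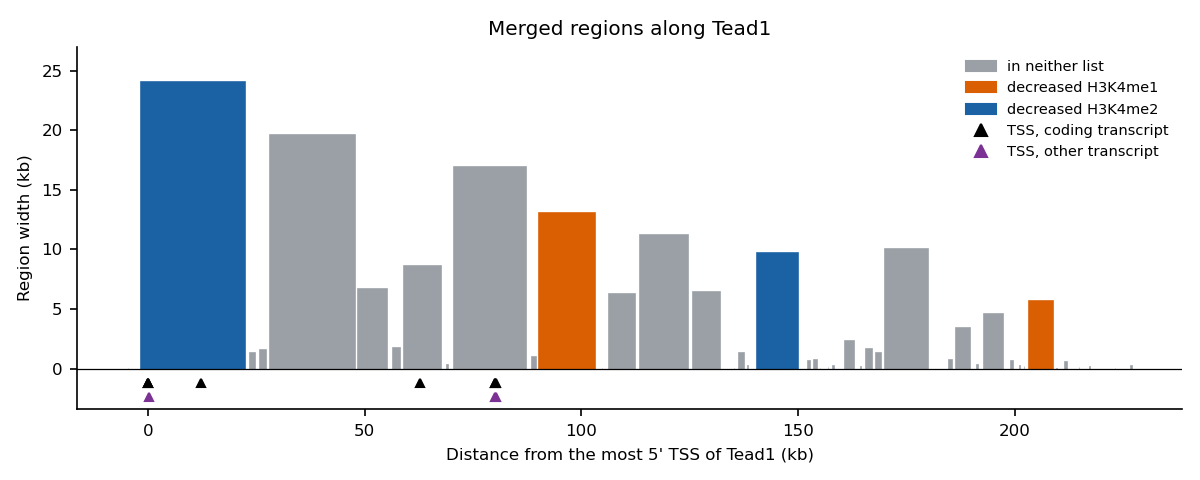
Width of the merged regions along *Tead1* (kb), drawn as boxes over their span, against the distance from the most 5′ TSS (kb), with triangles for TSSs of coding and other transcripts. The widest region, at the first TSS, and 1 of 9760 bp had decreased H3K4me2, and those of 13160 and 5740 bp had decreased H3K4me1.

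*Tead1* also has an internal group of TSSs near 80 kb, among them 119902952 of coding transcript Tead1-005. These lay in a region of 16980 bp (chr7:119893126-119910105) that was in neither list. The H3K4me1 call of 13160 bp began downstream of that group, with a single region of 1060 bp between them. The TSSs near 80 kb and the first TSS of *Tead1* therefore differed in the call.

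*Tead2* (ENSMUSG00000030796.8, chr7:52471123-52489005, plus strand) had 6 regions. Its TSS region of 5080 bp (chr7:52470846-52475925) was in neither list. The only call was the 60 bp region printed above, with decreased H3K4me1, in intron 8 of Tead2-001 and 12.4 kb from the TSS. A region of 4600 bp at the 3′ end (chr7:52487446-52492045), also in neither list, held a further *Tead2* TSS and the TSS of *Cd37*, a gene of white blood cells.

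*Tead3* and *Tead4* had no call. *Tead3* (ENSMUSG00000002249.10, chr17:28468616-28487750, minus strand) had only 2 regions, but they covered 73.5% of its body. Its TSS region of 13380 bp (chr17:28477106-28490485) was wider than that of 96.4% of genes. The other region, of 8000 bp (chr17:28464026-28472025), lay across its 3′ end. That region reached beyond the gene and also held a TSS of *Rpl10a*. *Tead4* (ENSMUSG00000030353.9, chr6:128174306-128250841, minus strand) had 14 regions, which covered 17.8% of its body, and a TSS region of 8300 bp (chr6:128244046-128252345). Of the 4 *Tead* genes, the call at a TSS was thus made in *Tead1* alone, while the TSS regions of *Tead3* and *Tead4* were also wide.

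A region was assigned up to the end of the gene body or up to 5 kb from a TSS, whichever lay farther out. For each gene, the region closest to this limit on the inside was in neither list. The nearest region outside lay 227 to 4325 bp beyond the limit, and only that of *Stk4* was called. That region was 500 bp wide (chr2:163886826-163887325), had decreased H3K4me1, and lay 8.73 kb from the *Stk4* TSS.

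The base composition of the promoters also varied. GC content in the 250 bases before the most 5′ TSS ranged from 40.8% in *Stk4* to 76.4% in *Yap1*, with a median of 54% over all genes. The same windows held 3 to 44 CpG dinucleotides, against a median of 8. The lowest of both values came from *Stk4*, whose window precedes the TSS of Stk4-004 and not that of the longer Stk4-001. GGAATG was found in the called regions at 0 to 0.912 per kb, highest in the 13160 bp region of *Tead1*. Its density was 0.633 per kb in the whole merged list, 0.641 in the H3K4me1-decreased list and 0.546 in the H3K4me2-decreased list.

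The rest of the pathway was examined through a list of 31 genes, of which 30 were in the annotation and 29 had a TSS in a region. H3K4me2 was decreased at a TSS of 12 of these 29 (41.4%) and H3K4me1 at a TSS of 2, beside the backgrounds of 29.2% and 1.29% given above. The TSS regions of this list were also wide. Of its 24 genes with a TSS region of at least 4000 bp, 11 (45.8%) had decreased H3K4me2 at a TSS, against 39.4% of all genes of that class. Over the 402 regions of the list, 15 (3.73%) had decreased H3K4me2 and 3 (0.746%) had decreased H3K4me1, against 2.69% and 0.935% of regions at all protein-coding genes. At a TSS the shares of the list were thus above those of all genes, for H3K4me1 on 2 genes only. The shares per region lay nearer to those of all genes, and no test was made.

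Among scaffolds and kinase cofactors, 3 of 4 genes had a TSS region with decreased H3K4me2. These were *Sav1*, which binds STK3 and STK4 (4640 bp), *Mob1b*, which activates LATS kinases (10140 bp), and *Nf2*, which encodes the upstream regulator merlin (4740 bp). Of 17 upstream regulators, 5 had such a call. *Wwc2* had one of 8380 bp and *Frmd6* one of 4480 bp. The kinase genes *Taok1*, *Taok2* and *Taok3* had TSS regions of 4340, 6220 and 5840 bp with decreased H3K4me2. *Wwc1*, the paralogue of *Wwc2*, had instead a TSS region of 5760 bp with decreased H3K4me1. This was not the region over its most 5′ TSS, which was 2380 bp wide and in neither list. An intragenic *Wwc1* region of 1420 bp had decreased H3K4me2. The *Wwc* paralogues therefore differed in the mark called at a TSS, but only the call of *Wwc2* was at the most 5′ TSS.

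Of the nuclear cofactors, 1 of 3 with a TSS in a region was called. This was *Vgll4*, whose product competes with YAP1 for TEAD factors, with H3K4me2-decreased TSS regions of 11160 and 2400 bp. Of the 5 genes counted as targets of YAP1 and TEAD, 3 had decreased H3K4me2 at a TSS. These were *Ccn1*, a secreted matrix protein (13120 bp), *Ankrd1*, a muscle ankyrin repeat protein (7240 bp), and *Birc5*, the mitotic protein survivin (3920 bp). *Amotl2* was listed both as an upstream regulator and as a target, and was counted only as upstream. Its TSS region of 20240 bp was in neither list. *Axl*, a receptor tyrosine kinase, had decreased H3K4me1 at a TSS region of 5000 bp. Each class of the list is small, and the share over all genes was 29.2%.

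**Figure D5:**
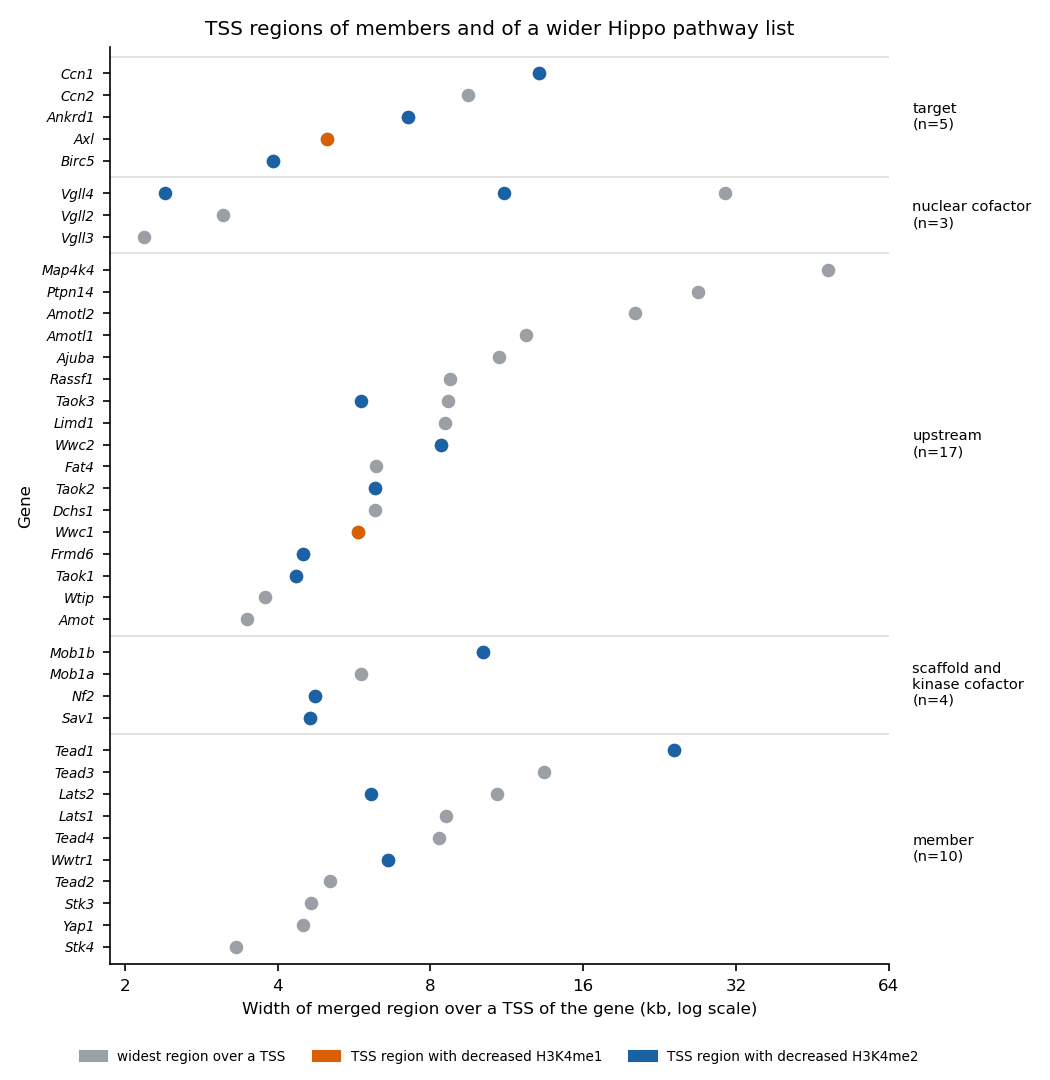
Width of merged regions over a TSS (kb, log scale) for the 10 Hippo genes and 29 further genes of the pathway, grouped by role. Grey points are the widest region over a TSS of the gene, and coloured points are TSS regions with decreased H3K4me2 or H3K4me1, which in *Lats2*, *Vgll4* and *Taok3* are not the widest.

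TSS regions were also listed for cell type markers. The heart muscle genes *Tnnt2*, *Myh6*, *Actc1*, *Nkx2-5* and *Myl7* all had TSS regions, from 12960 to 22900 bp wide. The endocardial markers *Pecam1*, *Tek* and *Npr3* and the epicardial markers *Wt1* and *Tbx18* had TSS regions of 3880 to 12160 bp. No TSS of the erythroid gene *Hba-a1* lay in a region, but 2 regions were assigned to the gene, of which 1 had decreased H3K4me2. Of these markers, *Actc1* and *Nkx2-5* had decreased H3K4me2 at the TSS, and *Pecam1* had 1 region with decreased H3K4me1 that held none of its TSSs. Of genes from other organs, *Alb* had 5 regions but none over a TSS. *Neurod1* had a TSS region of 580 bp and *Cdx2* one of 3120 bp. No region at these genes from other organs was in a decreased list. Since 15752 of 22380 protein-coding genes had a TSS in a region, a TSS region does not show that a cell type was present. The merged list held marks at genes of several heart cell types. Their part in the calls at the Hippo genes was not tested.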

How the data were processed

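ChIP-Seq libraries from control and mutant E11.5 hearts, grouped by sample title, were processed by the authors into 3 deposited lists of coordinates per region on mm9, with no count, score or *P* value. The study gives a false discovery rate of 0.1 for its decreased regions. The deposited H3K4me2 list differs in size from the one the study describes, so whether it was made at that threshold is not known. The submitters' processing notes name CASAVA 1.8.2, FastQC, Bowtie2, Bowtie and SAMtools. The peak caller and the test are not given in the sources used here.

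Regions were assigned to GENCODE vM1 genes on NCBIM37 by overlap of 1 bp or more, and called where a decreased list held identical coordinates (Python 3.11.15, pandas 2.3.3, numpy 2.4.6, matplotlib 3.10.9). Every region ended within its NCBIM37 chromosome. Assignment was checked against a direct search. The Hippo genes, pathway list and markers were chosen with earlier results of these data known. Named genes were all 10 Hippo genes, pathway genes with a TSS in a decreased region, *Amotl2* and markers. Other genes were named for a TSS in a called region or in a TSS region of a Hippo gene. *Rpl10a* was named for a TSS in the other region of *Tead3*. *Tead1* was matched by its identifier, since a short non-coding gene shares the symbol. *Dchs2* was not found in the annotation under this symbol. Results for 1 marker and 1 promoter sequence are not reported here. No test was made, and the windows, TSS definition, minimum width and motif were varied.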

Additional observations from a re-analysis of the deposited data

How the results depend on the processing

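No paired analysis was possible because the lists hold no value per replicate, and for the same reason no pool could be left out and no stricter threshold applied. Over 9 results, 29 of 32 alternative values stayed within 1.5 times of the value reported, and 3 did not. With regions of at least 500 bp only, the 10 genes held 121 regions instead of 233. With the most 5′ TSS only, 1 pathway gene instead of 2 had a TSS in an H3K4me1-decreased region. At that setting the Hippo genes with a TSS in an H3K4me2-decreased region also fell from 3 to 2, which counted as within 1.5 times. Their count for H3K4me1 was 0 under every alternative, which also counted as within it. With GGAATGT, 1 promoter instead of 4 held a match. Regions with decreased H3K4me1 numbered 2 to 4 and those with decreased H3K4me2 8 to 9 under the alternatives. *Lats2* without its readthrough transcript, an alternative chosen after seeing the data, gave 227 regions and 8 with decreased H3K4me2. Depth is unknown and limits every statement on regions in neither list.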
